A study of Homo sapiens with 12 samples.

Results

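Control VCaP cells and control RWPE1 cells were compared by the rank of each gene within its own array, on 6 of the 12 arrays of a study of the transcription factor ERG in prostate cells. VCaP, a line grown from prostate cancer, has the TMPRSS2-ERG fusion, in which an androgen-driven promoter drives ERG. Its 2 control arrays came from cells given a scrambled short hairpin RNA by lentivirus and kept under puromycin selection. RWPE1 is a non-cancerous prostate epithelial line immortalised with papillomavirus genes and grown in keratinocyte serum-free medium. Its 4 control arrays came from cells transfected with a GFP construct and harvested at 48 h (2 arrays) or 72 h (2 arrays). The labels number the arrays of a group and do not say whether they came from separate cultures, so their spread may be technical. The remaining 6 arrays were labelled ERG short hairpin RNA (VCaP) or GFP-ERG (RWPE1) and were used for a repeat of the comparison.

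All were 1-colour arrays of biotin-labelled cRNA from total RNA. The lines were run on 2 different array designs and deposited in 2 tables normalised separately, so no intensity was set against another across the tables. Within each array, the 16251 gene symbols found in both tables were ranked from 0 (dimmest) to 100 (brightest), and a line's level is the mean percentile rank of its control arrays. Values after ± are SDs, over n = 2 VCaP arrays and n = 4 RWPE1 arrays throughout, and differences are VCaP minus RWPE1 in percentile points. A gene was called higher in 1 line when the means differed by at least 25 points, no array of a line overlapped the other line, and the higher mean was at least 60. No test was made between the lines. Cell line, array design, construct, selection, medium and normalisation cannot be told apart in this design, and a rank difference can come from the probe as well as from the RNA.

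The prostate epithelium has a luminal layer, which secretes under the control of androgens, and a basal layer, which rests on the basement membrane and makes keratins such as KRT5 and KRT14. Most prostate cancers have a luminal expression pattern and lose the basal layer. Interferon-induced genes are an antiviral programme that cells switch on through STAT and IRF factors, many through the interferon-stimulated response element of their promoters.

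The control arrays of each line kept close ranks among themselves. Spearman's correlation across genes was 0.705 to 0.711 over the 8 pairs of a VCaP and an RWPE1 array, 0.977 between the VCaP arrays and 0.986 or more between RWPE1 arrays. Genes are not independent replicates, and arrays of a line share a design and a normalisation. Of the 16251 genes, 898 (5.53%) were called higher in VCaP and 1001 (6.16%) higher in RWPE1, 11.7% in all. The same size and level rule, without the condition on overlap, found 0 genes between the VCaP arrays, 0 within either RWPE1 time and 5 (0.0308%) between 72 h and 48 h. The arrays of the lines did not overlap for 12607 genes (77.6%), so lack of overlap alone marks little. The median difference over all genes was 0.31 points and the median size of the difference was 10.2 points. A mean rank of at least 60 was seen in both lines for 4997 genes, in VCaP alone for 1492, in RWPE1 alone for 1502 and in neither for 8260. The median of each array lay near the bottom of its scale, so ranks in the lower part order dim probes whose position is loose. STEAP1, for example, ranked 0.228 on one VCaP array and 18.9 on the other.

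Luminal genes ranked higher in VCaP. Of 27 ranked members of the luminal list, 16 (59.3%) were called higher in VCaP, 1 (3.70%) higher in RWPE1 and 10 neither. The shares of all genes were 5.53% and 6.16%. The median difference of the list was 40.8 points against 0.31 over all genes. The list's median rank was 87.8 in VCaP and 32.4 in RWPE1. KLK2, another androgen-regulated kallikrein, was not analysed here, since its symbol was not in both tables.

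KLK4, an androgen-regulated kallikrein protease of the prostate, ranked 97.4 and 97.8 on the VCaP arrays, 1.45 and 4.07 on the 48 h RWPE1 arrays and 1.76 and 1.46 on the 72 h arrays. It stood near the top of both VCaP arrays and at the bottom of all RWPE1 arrays, a difference of 95.4 points. TMPRSS2, the androgen-driven serine protease gene whose promoter is the 5′ partner of the fusion, ranked 97.9 and 98.5 on the VCaP arrays, 17 and 23 on the 48 h RWPE1 arrays and 30.1 and 22.5 on the 72 h arrays. FOXA1, a pioneer factor that opens chromatin in luminal cells, ranked 99.2 and 99.1 on the VCaP arrays, 41.6 and 36.6 on the 48 h RWPE1 arrays and 32.9 and 36.3 on the 72 h arrays. Both genes were among the brightest genes of VCaP, and both lay in the lower part of the ranks in RWPE1.

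KLK3, the gene of prostate-specific antigen, ranked 75.4 and 75.3 on the VCaP arrays, 13.3 and 4.55 on the 48 h RWPE1 arrays and 24 and 26.7 on the 72 h arrays. Both VCaP arrays ranked it above all 4 RWPE1 arrays, a difference of 58.2 points. HOXB13, a homeobox factor of prostate identity, averaged 87.8 ± 0.91 in VCaP and 26.6 ± 3.6 in RWPE1. TRPM8, an androgen-regulated cold-sensing channel, averaged 95.5 ± 0.087 in VCaP and 2.12 ± 0.82 in RWPE1. ACP3, prostatic acid phosphatase, averaged 99.5 ± 0.052 in VCaP and 28 ± 5.3 in RWPE1. FOLH1, prostate-specific membrane antigen, averaged 80.5 ± 0.22 in VCaP and 7.33 ± 3.0 in RWPE1. All of these genes were called higher in VCaP, as were TRPV6, a calcium channel (74 ± 0.97 against 7.497 ± 3.9), TMEFF2 (97.8 ± 0.24 against 32.4 ± 5.2) and STEAP2, a metalloreductase (98.6 ± 0.15 against 24.7 ± 4.5).

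STEAP1, a related prostate membrane protein, was the only luminal member called the other way. It ranked 0.228 and 18.9 on the VCaP arrays, 80.1 and 79.6 on the 48 h RWPE1 arrays and 73.2 and 72.3 on the 72 h arrays, on 1 probe in each table. The luminal keratins KRT8 and KRT18 were not called. KRT8 averaged 78.9 ± 1.0 in VCaP and 89.9 ± 1.4 in RWPE1, and KRT18 averaged 68 ± 3.1 in VCaP and 81 ± 0.85 in RWPE1, so the RWPE1 cells had both at high ranks. MSMB, a secreted prostate protein (25.6 ± 7.4 against 1.78 ± 1.1), and AZGP1 (42.9 ± 2.0 against 27.6 ± 2.0) ranked low in both lines.

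Basal epithelial genes ranked higher in RWPE1. Of 27 ranked members, 19 (70.4%) were called higher in RWPE1, 1 (3.70%) higher in VCaP and 7 neither, with a median difference of -44.9 points. The shares of all genes were 6.16% and 5.53%. KRT5, the defining basal keratin, ranked 1.88 and 8.68 on the VCaP arrays, 99 and 98.9 on the 48 h RWPE1 arrays and 99.3 and 99.3 on the 72 h arrays. KRT14, its keratin partner, ranked 35.3 and 30.1 on the VCaP arrays, 99.5 and 99.5 on the 48 h RWPE1 arrays and 99.6 and 99.6 on the 72 h arrays. Both were among the brightest genes of every RWPE1 array. TP63, the basal master regulator, and the keratin genes KRT17 and KRT6A were not analysed here, since their symbols were not in both tables.

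CAV1, the main coat protein of caveolae, ranked 0.535 and 0.997 on the VCaP arrays, 96.7 and 97 on the 48 h RWPE1 arrays and 96.7 and 96.2 on the 72 h arrays, and its partner CAV2 averaged 34.4 ± 3.4 in VCaP and 95.3 ± 1.2 in RWPE1. SFN, an epithelial 14-3-3 protein, averaged 12.8 ± 1.3 in VCaP and 98.3 ± 0.088 in RWPE1. CDH3, P-cadherin, averaged 49 ± 1.5 in VCaP and 93.9 ± 0.18 in RWPE1. ITGB4, the laminin-binding integrin subunit of hemidesmosomes, averaged 32.8 ± 9.4 in VCaP and 92.4 ± 3.4 in RWPE1, and the laminin chain gene LAMB3 averaged 35.5 ± 3.0 in VCaP and 75.4 ± 4.1 in RWPE1. These adhesion genes of the basal cell surface differed by -44.9 points for CDH3, -59.6 for ITGB4 and -39.9 for LAMB3.

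ITGA6, the partner of ITGB4, was the member called higher in VCaP. It ranked 72.1 and 67.2 on the VCaP arrays, 34.2 and 37.4 on the 48 h RWPE1 arrays and 28.6 and 40.5 on the 72 h arrays, while the other VCaP probe of the gene lay lower, at 45 among all VCaP gene probes against 75 for the probe used. EGFR, the epidermal growth factor receptor, averaged 58.8 ± 1.2 in VCaP and 89.2 ± 1.6 in RWPE1 and was called higher in RWPE1, but its call was lost when the probes of each gene were averaged (difference -22.0). ANXA1 (80.7 ± 1.7 against 99.1 ± 0.031), JAG1 (73.4 ± 0.65 against 88.8 ± 2.3) and KRT15 (28.3 ± 2.9 against 47.5 ± 4.0) were not called.

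**Figure D1:**
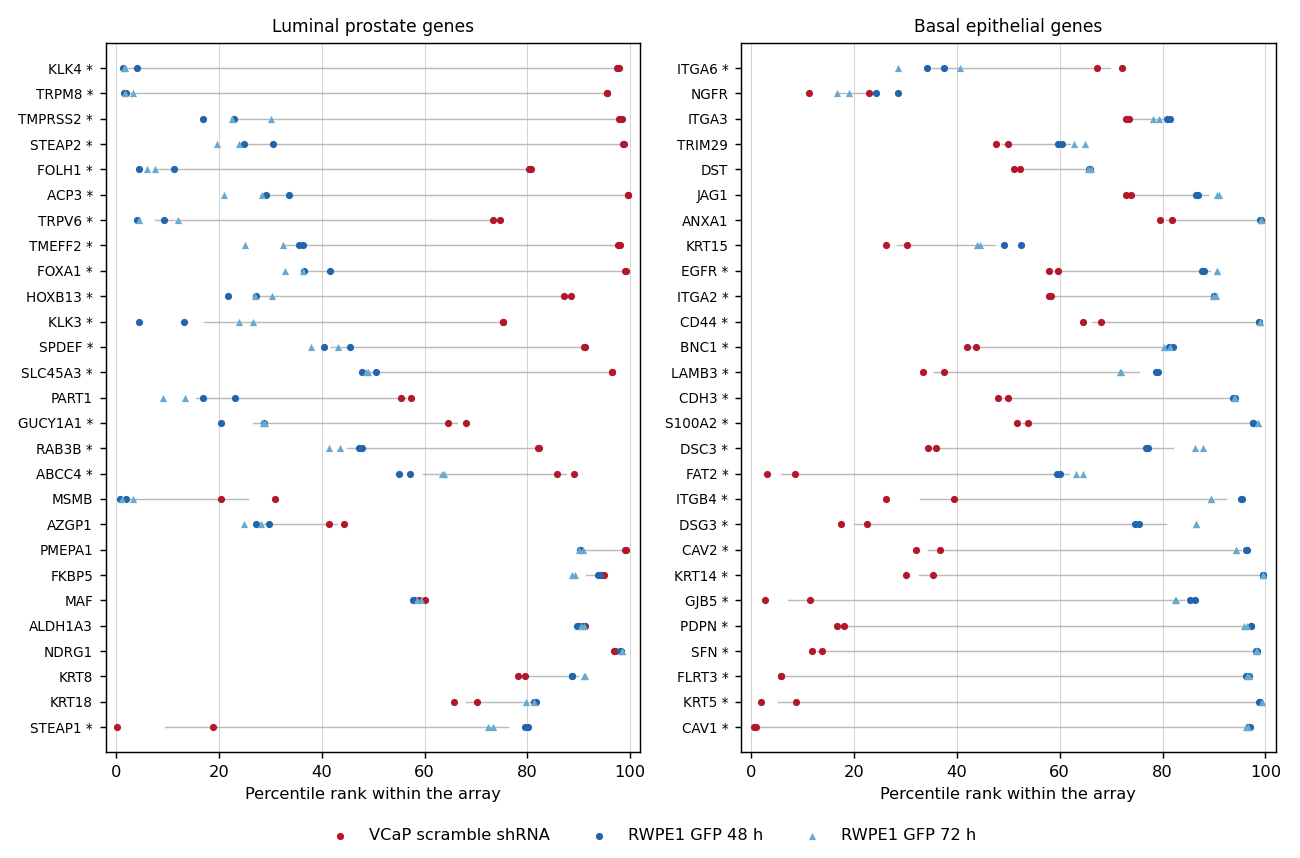
Percentile rank within the array (x axis) of each ranked member of the luminal list (left) and the basal list (right), 1 point per control array, with an asterisk for called genes. Most luminal genes have both VCaP points at the right, and most basal genes have all 4 RWPE1 points at the right, with STEAP1 and ITGA6 the other way.

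Squamous differentiation genes, which stratified epithelia and cultured keratinocytes make, were called higher in RWPE1 for 9 of 32 members (28.1%) and in VCaP for 0. The shares of all genes were 6.16% and 5.53%, and the list's median difference was -11. S100A8, a calcium-binding alarmin, averaged 3.96 ± 2.8 in VCaP and 94.1 ± 2.1 in RWPE1, and its partner S100A9 averaged 23.9 ± 2.0 in VCaP and 72 ± 2.3 in RWPE1. KRT16, a keratin of activated keratinocytes, averaged 39.3 ± 2.3 in VCaP and 87.4 ± 1.6 in RWPE1. TGM1, the transglutaminase that cross-links the cornified envelope, averaged 20.7 ± 5.6 in VCaP and 87.2 ± 4.1 in RWPE1, and SPRR1A, one of its substrates, averaged 19.5 ± 0.37 in VCaP and 88.9 ± 2.9 in RWPE1. PI3, the elastase inhibitor elafin, ranked 18.6 and 26.8 on the VCaP arrays, 96.3 and 96.9 on the 48 h RWPE1 arrays and 99.8 and 99.8 on the 72 h arrays, and SERPINB3, a squamous serpin, ranked 14.6 and 16.9 on the VCaP arrays, 82.2 and 82.8 on the 48 h RWPE1 arrays and 94.8 and 95.1 on the 72 h arrays. Both were higher in RWPE1 at either time and higher at 72 h than at 48 h.

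Cell junction genes divided between the lines. CDH1, E-cadherin of adherens junctions, ranked 96.4 and 97 on the VCaP arrays, 39 and 35.3 on the 48 h RWPE1 arrays and 44.7 and 39.8 on the 72 h arrays. It was bright in VCaP and in the lower part of the ranks on all 4 RWPE1 arrays. Among 24 tight and adherens junction genes, 6 (25%) were called higher in VCaP and 1 (4.17%) in RWPE1, with a median difference of 14.0. The shares of all genes were 5.53% and 6.16%. CLDN8 (96.5 ± 0.10 against 30.9 ± 4.1) and CLDN3 (74.8 ± 2.0 against 29.4 ± 3.2), claudins of tight junctions, CGN, which encodes cingulin (89.7 ± 0.28 against 54.6 ± 2.0), and GRHL2, an epithelial transcription factor (68.2 ± 1.7 against 40.3 ± 0.46), were called higher in VCaP. The claudin CLDN1 was the one called higher in RWPE1, at 59.3 ± 0.46 in VCaP and 95.3 ± 1.7 in RWPE1.

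Desmosome and hemidesmosome genes leaned the other way, with 6 of 17 (35.3%) called higher in RWPE1 and 2 (11.8%) in VCaP. The shares of all genes were 6.16% and 5.53%. The desmosomal plaque gene DSP averaged 47.1 ± 4.2 in VCaP and 92.1 ± 2.7 in RWPE1. DSG3 (19.97 ± 3.7 against 80.8 ± 6.6) and DSC3 (35.2 ± 1.2 against 82 ± 5.9), the desmosomal cadherins of basal cells, were higher in RWPE1, while DSC2 was not called (89.5 ± 1.2 against 68.4 ± 3.2). CD151, a tetraspanin bound to laminin-binding integrins, was called higher in VCaP (99 ± 0.078 against 73.5 ± 1.4), and averaging its probes reduced the difference to 20.8 points and ended the call.

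Of 32 mesenchymal genes, 12 (37.5%) were called higher in RWPE1 and 0 in VCaP, beside 6.16% and 5.53% of all genes. The median difference was -22.4. VIM, the intermediate filament vimentin, ranked 24.5 and 12.7 on the VCaP arrays, 99.7 and 99.7 on the 48 h RWPE1 arrays and 99.6 and 99.4 on the 72 h arrays. TGFBI, a matrix protein induced by TGF-beta, averaged 14.5 ± 1.4 in VCaP and 99.8 ± 0.11 in RWPE1. SNAI2, a zinc finger repressor of epithelial genes that basal cells also make, averaged 28.7 ± 8.2 in VCaP and 96.3 ± 0.85 in RWPE1, and ZEB2, another such repressor, averaged 8.96 ± 1.7 in VCaP and 60.2 ± 4.0 in RWPE1. The matrix genes SPARC (17.3 ± 10.1 against 73 ± 1.3) and COL5A1 (49.1 ± 0.27 against 92.5 ± 0.51) were also higher in RWPE1. COL1A1, the main collagen of fibroblasts, was not called, at 26.1 ± 8.8 in VCaP and 50.3 ± 6.3 in RWPE1.

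Markers of other cell types were mostly low in both lines. The 12 endothelial and 12 leukocyte markers had 0 calls, with median ranks of 31.7 and 24.6 in VCaP and 34.6 and 19.9 in RWPE1. A call needs a mean rank of at least 60, so lists this dim could give few calls. With no limit on level, 2 endothelial markers were higher in VCaP and 1 in RWPE1. For leukocyte markers the counts were 1 and 0. Of all genes, 9.38% and 9.83% were called in that setting. CD68, a lysosomal protein of macrophages that other cells also make, was bright in both lines on the probes used (69.3 ± 0.17 against 93.8 ± 3.3), while CD3D of T cells was dim (24.2 ± 1.2 against 6.14 ± 3.1). The 2 VCaP probes of CD68 lay at 74.6 and 13.4 among all VCaP probes, so its VCaP level rests on the brighter. Of 12 fibroblast markers, DCN (19.4 ± 7.3 against 65.5 ± 3.2), FAP (19.5 ± 5.3 against 63.5 ± 1.1) and MFAP5 (20.5 ± 9.1 against 71.3 ± 5.6) were called higher in RWPE1. That is 25% beside 6.16% of all genes, and the list's median rank was 19.5 in VCaP and 20.5 in RWPE1. With its probes averaged, DCN differed by -36.6 points and no longer reached the level of 60. The defining fibroblast marker PDGFRA ranked 50.9 ± 0.11 in VCaP and 7.19 ± 4.3 in RWPE1, and THY1 ranked 5.69 ± 0.57 in VCaP and 23.1 ± 4.2 in RWPE1. The part of other cells in the mesenchymal result was not tested.

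The ETS family, to which ERG belongs, binds GGAA-core sites. Of 25 ranked members, 3 (12%) were called higher in VCaP and 5 (20%) higher in RWPE1, beside 5.53% and 6.16% of all genes. The list is small, so few genes set these shares. Its median difference was -8.81. ERG, the gene that the fusion drives in VCaP, ranked 63.9 and 63.4 on the VCaP arrays, 33.8 and 38.7 on the 48 h RWPE1 arrays and 36.7 and 36.8 on the 72 h arrays. The difference of 27.1 points lay just inside the threshold, and VCaP ERG was far from the brightest genes. ERG had 3 probes in the VCaP table, whose mean ranks among all VCaP gene probes were 69.4, 33.0 and 12.5, and 2 in the RWPE1 table, at 40.4 and 3.35. The probes used had different RefSeq accessions in the 2 tables, and with the probes of each table averaged the difference was 30.9 points, but VCaP no longer reached the level of 60 that a call needs.

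SPDEF, a luminal ETS factor of secretory epithelium, ranked 90.9 and 91.1 on the VCaP arrays, 45.6 and 40.4 on the 48 h RWPE1 arrays and 37.9 and 43.1 on the 72 h arrays, and EHF, another epithelial ETS factor, averaged 91.7 ± 0.79 in VCaP and 42.3 ± 3.5 in RWPE1. ETS1, which is known for roles in migration and matrix protease genes, ranked 27.4 and 21.2 on the VCaP arrays, 95 and 95.1 on the 48 h RWPE1 arrays and 91.8 and 91.3 on the 72 h arrays. It was bright on all RWPE1 arrays and dim in VCaP. FLI1, the closest paralog of ERG, averaged 20.8 ± 3.5 in VCaP and 70.8 ± 0.57 in RWPE1. ETV5 (36.9 ± 4.6 against 74.8 ± 1.0) and ETV4 (36.4 ± 6.7 against 70.7 ± 1.3), partners in other prostate cancer fusions, and ELF4 (51.2 ± 2.0 against 84.1 ± 1.4) were also higher in RWPE1. ETS2 averaged 58.9 ± 1.5 in VCaP and 82.9 ± 3.3 in RWPE1 and, at -24.1 points, was just short of a call.

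Genes reported higher in ERG-fusion tumours formed a list of textbook knowledge about such tumours, and VCaP itself carries the fusion. Like the other lists, it was chosen with earlier results of these data known. Of 19 ranked, 10 (52.6%) were called higher in VCaP and 0 in RWPE1, beside 5.53% and 6.16% of all genes. The median difference was 48.0 points. PLA1A, a phosphatidylserine phospholipase, ranked 98.5 and 98.4 on the VCaP arrays, 0.781 and 6.33 on the 48 h RWPE1 arrays and 0.603 and 0.71996 on the 72 h arrays. GRPR, the receptor of gastrin-releasing peptide, ranked 86.4 and 85.7 on the VCaP arrays, 2.63 and 19.9 on the 48 h RWPE1 arrays and 5.83 and 8.15 on the 72 h arrays. TFF3, a secreted trefoil peptide, averaged 89.8 ± 0.50 in VCaP and 28.4 ± 3.5 in RWPE1. LEF1, a nuclear effector of Wnt signalling, averaged 82.7 ± 0.69 in VCaP and 16.3 ± 3.9 in RWPE1, and NCALD, a neuronal calcium sensor, averaged 80.1 ± 1.8 in VCaP and 26.1 ± 2.6 in RWPE1. CRISP3, a cysteine-rich secretory protein, averaged 85.6 ± 8.3 in VCaP and 25.2 ± 5.0 in RWPE1. HDAC1, a histone deacetylase, was bright in both lines (98.4 ± 0.27 against 97.4 ± 0.32), and FZD4, a Wnt receptor outside the list, was also alike (81.7 ± 0.11 against 75.5 ± 1.0). The repeat on the VCaP arrays labelled ERG short hairpin RNA against the RWPE1 arrays labelled GFP-ERG again had 10 called higher in VCaP and 0 in RWPE1. On those arrays PLA1A averaged 98.5 in VCaP and 3.98 in RWPE1, and ERG averaged 71 and 35.5. The ERG rank on the VCaP arrays labelled ERG short hairpin RNA was thus above the control mean of 63.6, against the direction of the label.

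**Figure D2:**
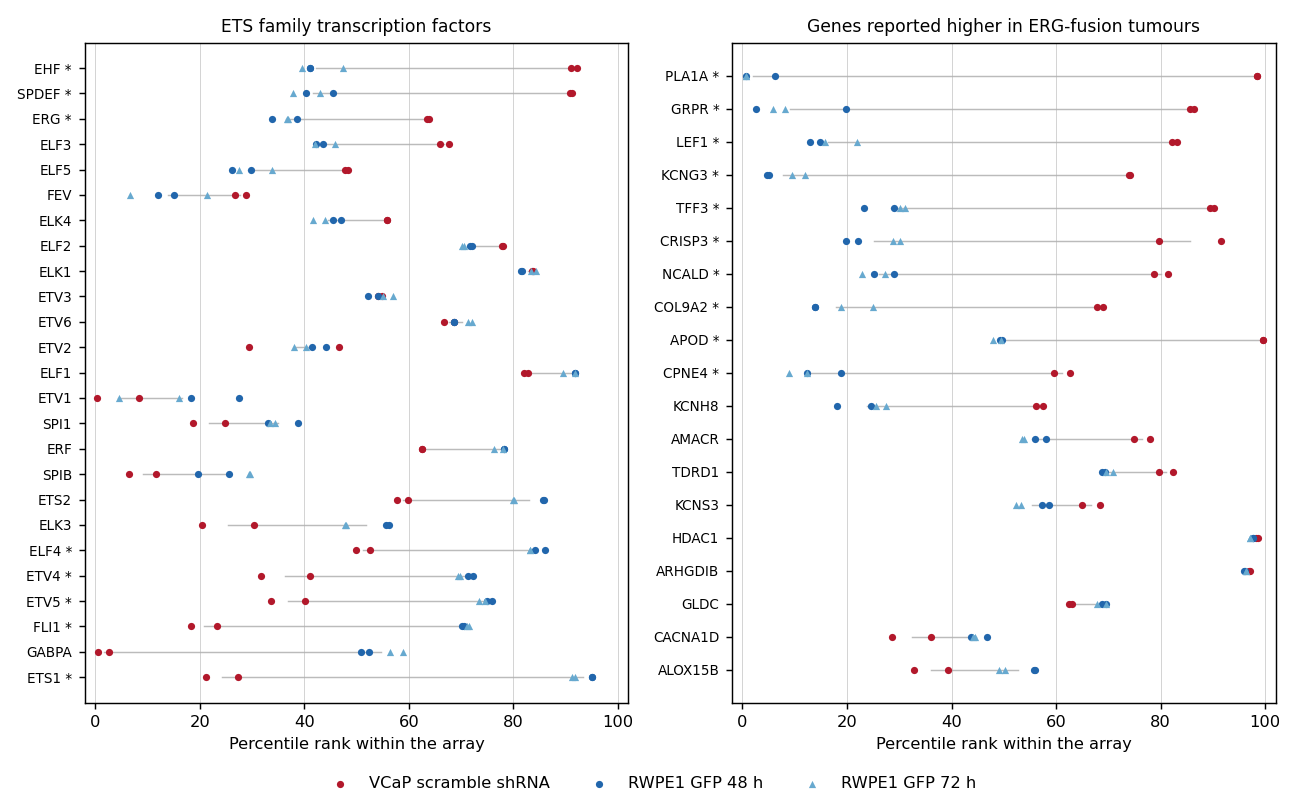
Percentile rank within the array (x axis) of each ranked ETS family member and each ranked gene reported higher in ERG-fusion tumours, 1 point per control array, with an asterisk for called genes. SPDEF, EHF and ERG are higher in VCaP and ETS1, FLI1, ETV5, ETV4 and ELF4 higher in RWPE1, and 10 of the 19 fusion-tumour genes are higher in VCaP.

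Interferon response and HLA genes had the largest share of members called in 1 direction among the 32 lists. The lists were chosen with earlier results of these data known, so their shares are not independent of the data. Of 33 ranked, 24 (72.7%) were called higher in RWPE1 and 0 in VCaP, beside 6.16% and 5.53% of all genes. The median difference was -50.5 points. The list's median rank on the 6 arrays was 42.7 and 41.6 in VCaP, 96.7 and 96.9 at 48 h in RWPE1, and 95 and 95.4 at 72 h. The 4 promoters shown belong to the called interferon genes with the largest differences whose promoter holds the core of the interferon-stimulated response element. They run 5′ to 3′ on the gene's strand, from 250 bases before to 50 bases after the RefSeq start (build GRCh38.p14), at chr1:78620198-78620497 for IFI44L, chr10:89327747-89328046 for IFIT3, chr12:112938224-112938523 for OAS3 and chr14:94110486-94110785 for IFI27, all on the plus strand. Capitals mark that core, which is GAAA, any 2 bases and GAAA, or its reverse complement, TTTC, any 2 bases and TTTC.
IFI44L: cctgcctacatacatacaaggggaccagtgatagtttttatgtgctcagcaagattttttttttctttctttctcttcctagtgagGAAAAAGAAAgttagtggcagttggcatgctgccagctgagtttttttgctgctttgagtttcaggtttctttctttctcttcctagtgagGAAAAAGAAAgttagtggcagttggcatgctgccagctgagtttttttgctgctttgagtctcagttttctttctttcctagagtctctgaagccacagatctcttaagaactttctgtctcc
IFIT3: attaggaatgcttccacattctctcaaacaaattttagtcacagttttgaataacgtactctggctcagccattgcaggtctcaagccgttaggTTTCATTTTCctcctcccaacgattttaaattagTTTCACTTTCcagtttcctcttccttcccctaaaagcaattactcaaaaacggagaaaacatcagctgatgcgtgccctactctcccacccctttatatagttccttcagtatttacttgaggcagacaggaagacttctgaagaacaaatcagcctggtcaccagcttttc
OAS3: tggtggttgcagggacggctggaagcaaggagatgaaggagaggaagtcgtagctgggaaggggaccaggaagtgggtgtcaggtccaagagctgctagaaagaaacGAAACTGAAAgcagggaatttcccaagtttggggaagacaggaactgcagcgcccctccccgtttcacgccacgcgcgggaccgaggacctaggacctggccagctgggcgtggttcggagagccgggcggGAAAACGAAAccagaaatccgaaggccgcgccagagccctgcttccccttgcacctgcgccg
IFI27: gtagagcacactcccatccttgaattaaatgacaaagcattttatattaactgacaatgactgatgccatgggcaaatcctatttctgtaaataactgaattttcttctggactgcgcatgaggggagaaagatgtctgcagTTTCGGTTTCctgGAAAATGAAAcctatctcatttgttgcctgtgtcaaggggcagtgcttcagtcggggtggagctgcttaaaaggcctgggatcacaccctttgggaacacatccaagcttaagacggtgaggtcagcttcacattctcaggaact

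Each of the 4 holds the core 2 times, with first bases between positions -164 and -12 relative to the start. Of the 19 called interferon and HLA genes with a RefSeq promoter, 14 (73.7%) held the core on either strand. The share was 3.65% of all 27305 promoters, 3.16% of those of ranked genes, 2.55% of those of genes called higher in VCaP and 6.97% of those of genes called higher in RWPE1. A match is only the presence of these letters. The list holds known interferon genes and its uncalled members were not counted, so the share does not bear on the difference between the lines. A STAT site was in 2 of the 19 (10.5%) and in 0.165% of all promoters, and its letters can share bases with the core.

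IFI44L, an interferon-induced antiviral gene, ranked 1.27 and 3.44 on the VCaP arrays, 98.7 and 98.8 on the 48 h RWPE1 arrays and 98.5 and 98.6 on the 72 h arrays. IFIT3, which works with other IFIT proteins against viral RNA, ranked 13.1 and 7.86 on the VCaP arrays, 99.3 and 99.3 on the 48 h RWPE1 arrays and 98.8 and 98.8 on the 72 h arrays. OAS3, a sensor of double-stranded RNA that activates RNase L, ranked 12.3 and 9.59 on the VCaP arrays, 92.9 and 92.9 on the 48 h RWPE1 arrays and 91.5 and 91 on the 72 h arrays. IFI27, an interferon-induced mitochondrial protein, ranked 15.7 and 23.2 on the VCaP arrays, 97.9 and 98 on the 48 h RWPE1 arrays and 97.8 and 97.7 on the 72 h arrays. All 4 were near the top of the RWPE1 arrays at both times and dim in VCaP.

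OAS2 (19.7 ± 6.3 against 95.3 ± 0.68) and OASL (19.5 ± 14.2 against 94.2 ± 1.1), paralogs of OAS3, were higher in RWPE1 too. HLA-E, a non-classical class I molecule that natural killer cells read, ranked 14.5 and 3.74 on the VCaP arrays, 97.7 and 97.6 on the 48 h RWPE1 arrays and 96 and 95.9 on the 72 h arrays, and HLA-F averaged 11.5 ± 9.98 in VCaP and 89.7 ± 2.0 in RWPE1. Probes of the HLA genes can share sequence with their paralogs, so their split is uncertain. TAP1, the peptide transporter of class I presentation, was bright in both lines (74.3 ± 0.28 against 98.6 ± 0.23) and fell short of a call at -24.3 points. IFNB1, the gene of interferon beta, belonged to no list and was among the 15 genes with the largest differences toward RWPE1. It ranked 0.15999 and 4.35 on the VCaP arrays, 97.5 and 96.4 on the 48 h RWPE1 arrays and 90.7 and 91.8 on the 72 h arrays, and its 48 h arrays were the higher pair.

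Within RWPE1, 72 h was tested against 48 h on the deposited log2 values (limma on all 8 RWPE1 arrays, Benjamini-Hochberg adjusted p under 0.05). Of 16591 genes, 1959 (11.8%) were higher at 72 h and 1861 (11.2%) lower. Of 34 interferon and HLA genes tested, 19 were lower and 1 higher at 72 h, with a median log2 difference of -0.22. Time after transfection and time in culture cannot be told apart in this contrast. Arrays of a group may share a culture, so the test may measure differences against technical spread alone. An untransfected RWPE1 group was not analysed here, so the part of the GFP transfection in the interferon ranks was not tested.

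Cytokine, chemokine and acute-phase genes followed the same order, with 16 of 32 (50%) called higher in RWPE1, 0 in VCaP and a median difference of -32.3. The shares of all genes were 6.16% and 5.53%. IL1B, a proinflammatory interleukin, ranked 9.81 and 0.154 on the VCaP arrays, 97.6 and 97.5 on the 48 h RWPE1 arrays and 99.1 and 99.2 on the 72 h arrays. IL1A averaged 13 ± 4.2 in VCaP and 98.6 ± 0.067 in RWPE1, and IL6 averaged 30.6 ± 1.5 in VCaP and 95 ± 0.68 in RWPE1. CXCL1 (26.5 ± 1.7 against 89.1 ± 0.12) and CXCL2 (3.62 ± 0.85 against 82.9 ± 1.5), neutrophil chemokines, and CCL5, a T-cell chemokine (20.2 ± 2.7 against 76.8 ± 6.1), were called. TNFAIP3, which dampens NF-kappaB signalling, averaged 38.5 ± 13.1 in VCaP and 93.1 ± 1.5 in RWPE1, and the complement factor CFB averaged 15.8 ± 0.078 in VCaP and 85.5 ± 4.0 in RWPE1. TNF itself did not reach the level of 60 in either line (8.22 ± 0.22 against 54.3 ± 1.3).

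Of 13 called cytokine genes with a RefSeq promoter, 1 (7.69%) held a form of the NF-kappaB site against 0.194% of all promoters, and 3 held the AP-1 site TGANTCA (23.1%) against 7.76% of all promoters. Uncalled members of the list were not counted, so these shares do not bear on the difference between the lines.

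**Figure D3:**
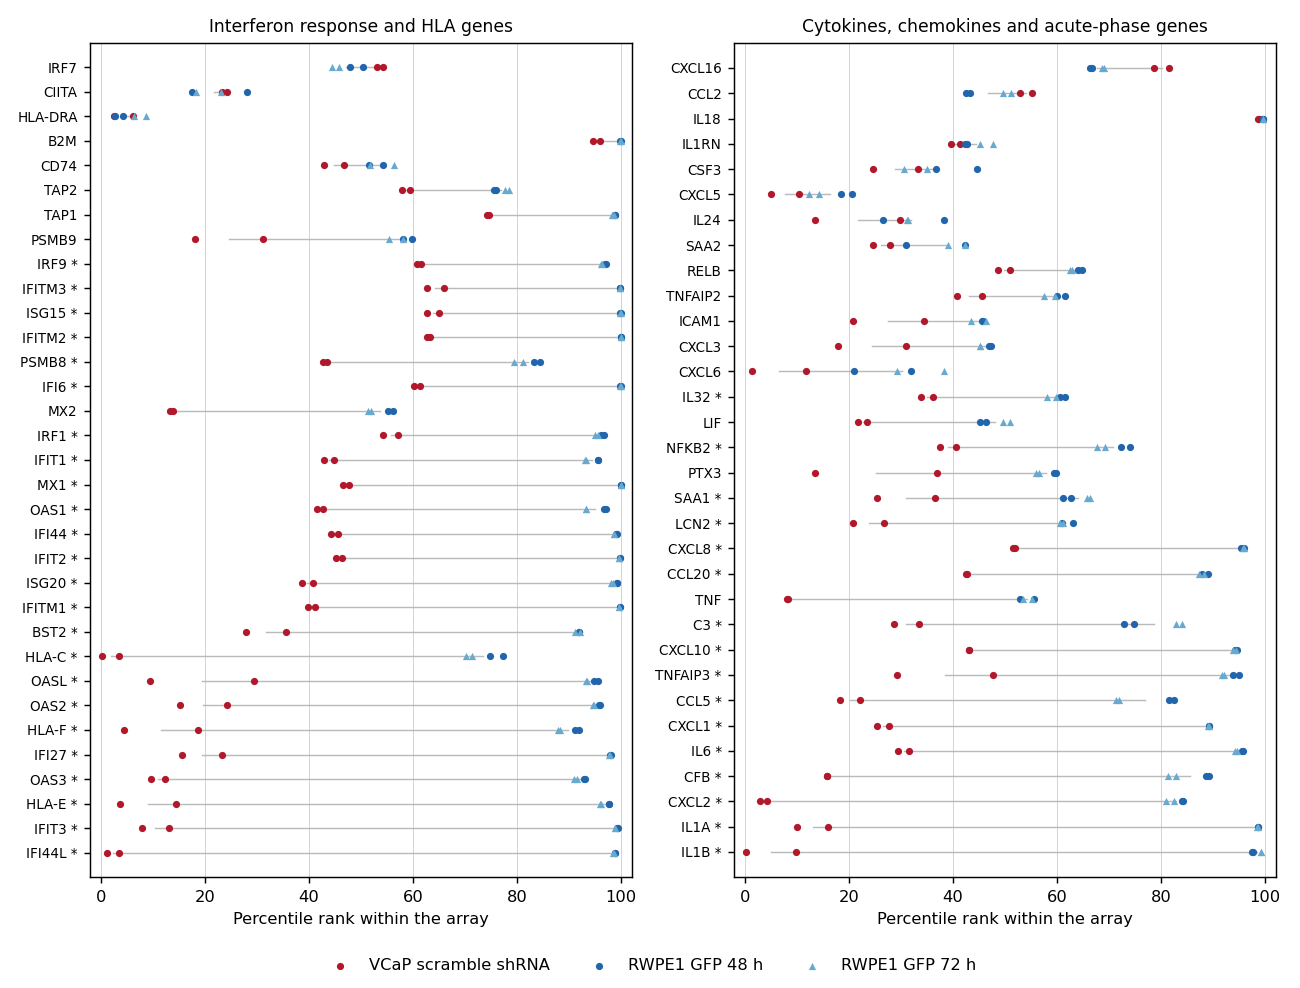
Percentile rank within the array (x axis) of each ranked interferon or HLA gene (left) and cytokine, chemokine or acute-phase gene (right), 1 point per control array, with an asterisk for called genes. Called members, 24 of 33 and 16 of 32, all have the 4 RWPE1 points to the right of the VCaP points.

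Genes of plasminogen activation and matrix proteolysis act in invasion and tissue remodelling. Of 27 ranked, 9 (33.3%) were called higher in RWPE1 and 3 (11.1%) in VCaP, beside 6.16% and 5.53% of all genes. PLAU, urokinase, ranked 39.9 and 20.8 on the VCaP arrays, 96.2 and 96.4 on the 48 h RWPE1 arrays and 94.8 and 94.4 on the 72 h arrays, and PLAT, tissue plasminogen activator, averaged 5.26 ± 6.1 in VCaP and 79.7 ± 2.5 in RWPE1. TIMP1, an inhibitor of matrix metalloproteinases, averaged 11.1 ± 5.6 in VCaP and 99.6 ± 0.046 in RWPE1, and MMP9, a gelatinase, averaged 18.4 ± 3.7 in VCaP and 70.6 ± 5.1 in RWPE1. Both activators and an inhibitor were therefore higher in RWPE1. The cell-surface serine proteases HPN (90.1 ± 1.3 against 2.79 ± 1.3), known as hepsin and often raised in prostate cancer, and ST14, matriptase (84.5 ± 1.2 against 38.5 ± 3.2), were higher in VCaP, as was MMP10 (68.7 ± 1.6 against 28 ± 4.5).

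Of 36 growth factor receptors and ligands, 11 (30.6%) were called higher in RWPE1 and 1 (2.78%) in VCaP, beside 6.16% and 5.53% of all genes. EPHA2, an ephrin receptor, ranked 16.8 and 14.2 on the VCaP arrays, 98.2 and 98.2 on the 48 h RWPE1 arrays and 97.7 and 98.1 on the 72 h arrays. AXL, the receptor of GAS6, averaged 11 ± 5.6 in VCaP and 89.4 ± 1.8 in RWPE1, and MET, the hepatocyte growth factor receptor, averaged 29.2 ± 3.5 in VCaP and 83.8 ± 4.6 in RWPE1. TGFBR2, a TGF-beta receptor, averaged 39.4 ± 3.0 in VCaP and 80.7 ± 0.61 in RWPE1. The ligand VEGFC, which drives lymphatic growth, ranked 0.105 and 0.572 on the VCaP arrays, 94.4 and 93.4 on the 48 h RWPE1 arrays and 86.6 and 87.7 on the 72 h arrays. IGFBP7 (4.19 ± 4.8 against 99.1 ± 0.041) and IGFBP6 (32.9 ± 4.1 against 98.6 ± 0.55), secreted binders of insulin-like growth factors, were near the top of RWPE1. The receptor-like FGFRL1 was the one called higher in VCaP (93.2 ± 0.70 against 62.8 ± 1.9), and averaging its probes ended the call at 24.8 points.

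Neuroendocrine genes, which encode secretory granule proteins and neuronal factors, were called higher in VCaP for 6 of 18 (33.3%) and in RWPE1 for 2 (11.1%). The shares of all genes were 5.53% and 6.16%. CHGA, chromogranin A of secretory granules, ranked 77.8 and 76.6 on the VCaP arrays, 20.1 and 10.5 on the 48 h RWPE1 arrays and 9.77 and 13.3 on the 72 h arrays. The secretogranins SCG3 (67.2 ± 0.47 against 21.5 ± 4.0) and SCG2 (61.5 ± 3.0 against 24.2 ± 11.2), the vesicle protein SYT4 (76.4 ± 1.7 against 18.6 ± 4.4) and DDC, aromatic amino acid decarboxylase (66.2 ± 3.4 against 32.6 ± 1.7), were higher in VCaP at middle to upper ranks. UCHL1 (24.9 ± 5.6 against 71.3 ± 1.8) and SCG5 (54.2 ± 1.2 against 84.7 ± 2.7) were higher in RWPE1. SYP, synaptophysin, did not reach 60 in VCaP (55.7 ± 2.2 against 17.6 ± 3.6).

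Of all genes, 5.53% were called higher in VCaP and 6.16% in RWPE1. In the same order, the cell cycle lists had 3.33% and 3.33% (mitosis), 9.68% and 0% (S phase) and 4.17% and 16.7% (RB). Of 30 mitosis genes, 1 was called in each direction, UBE2C higher in VCaP (95 ± 0.11 against 55.6 ± 4.0) and MAD2L1 higher in RWPE1 (46.4 ± 1.7 against 89.7 ± 0.87). Of 31 S phase genes, 3 were called higher in VCaP, among them MCM6, a replicative helicase subunit (97.3 ± 0.20 against 53.8 ± 1.3), and 0 in RWPE1. Of 24 ranked members of the RB and cell cycle inhibitor list, 4 were higher in RWPE1 and 1, UBE3A, in VCaP (93.8 ± 0.022 against 66.8 ± 0.50). The list also holds genes outside that pathway, UBE3A among them. CDKN2A, the p16 inhibitor gene, averaged 50.1 ± 1.5 in VCaP and 79 ± 2.2 in RWPE1, CDK6, a G1 kinase, averaged 34 ± 0.46 in VCaP and 93.1 ± 0.32 in RWPE1, and its cyclin partner CCND2 averaged 10.9 ± 0.60 in VCaP and 88.3 ± 3.3 in RWPE1. Averaging its probes ended the call of UBE3A, at 19.0 points. MYC was bright in both lines (95.1 ± 1.6 against 99 ± 0.15). Within RWPE1, 28 of 30 mitosis genes were higher and 0 lower at 72 h than at 48 h by the limma test, beside 11.8% and 11.2% of all genes.

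Of 22 p53 target genes, BBC3, a pro-apoptotic BH3 protein (27.4 ± 8.8 against 84.7 ± 3.4), TP53I3 (46.7 ± 0.84 against 85 ± 1.1) and PLK2 (17 ± 11.4 against 61.5 ± 2.0) were called higher in RWPE1 and 0 in VCaP. These were 13.6% and 0%, beside 6.16% and 5.53% of all genes, and the list is small, so few genes set its share. CDKN1A, the p21 inhibitor gene, was not called (80.2 ± 1.2 against 90.4 ± 1.5). Averaging the probes ended the call of TP53I3, at -19.4 points.

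Of 24 genes reported with promoter methylation in prostate cancer, 10 (41.7%) were called higher in RWPE1, beside 6.16% of all genes. DAPK1 alone was called higher in VCaP (65.1 ± 0.42 against 33.3 ± 2.4), 4.17% beside 5.53% of all genes. GSTP1, a glutathione transferase that prostate cancers commonly silence by methylation, ranked 15.1 and 23.6 on the VCaP arrays, 99.9 and 99.9 on the 48 h RWPE1 arrays and 99.9 and 99.96 on the 72 h arrays. It was at the very top of every RWPE1 array and dim on both VCaP arrays. SERPINB5, maspin, averaged 31 ± 7.0 in VCaP and 99.4 ± 0.058 in RWPE1, and LGALS3, galectin-3, averaged 19.4 ± 7.0 in VCaP and 85.4 ± 2.0 in RWPE1. The list shares CAV1, SFN, S100A2 and LAMB3 with the basal list. Methylation was not measured.

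Of 33 steroid and xenobiotic metabolism genes, 5 were called higher in RWPE1 (15.2%) and 3 in VCaP (9.09%). The RWPE1 count varied with time, at 3 with the 48 h arrays alone and 8 with the 72 h arrays alone. Over all genes the shares were 6.16% and 5.53%. UGT2B15, which glucuronidates androgens, averaged 67.4 ± 0.74 in VCaP and 5.57 ± 2.4 in RWPE1, and the sterol dehydrogenase HSD17B6 averaged 85.3 ± 0.039 in VCaP and 59.2 ± 0.92 in RWPE1. ALDH3A1, an aldehyde dehydrogenase, averaged 8.21 ± 9.0 in VCaP and 74.8 ± 0.48 in RWPE1, and CYP1B1, a cytochrome that oxidises oestrogens, averaged 61.7 ± 0.62 in VCaP and 89.8 ± 4.7 in RWPE1. UGT2B15 and its neighbour UGT2B17 are close paralogs whose probes may not be separable. AKR1D1, a bile acid and steroid 5-beta-reductase outside the list, had the largest difference toward VCaP. It ranked 99.1 and 99.3 on the VCaP arrays, 0.603 and 2.77 on the 48 h RWPE1 arrays and 0.572 and 0.431 on the 72 h arrays.

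Cholesterol and fatty acid synthesis genes gave 1 call in VCaP (4.17%) and 2 in RWPE1 (8.33%) of 24. These shares were near those of all genes, 5.53% and 6.16%. ACACA, acetyl-CoA carboxylase of fatty acid synthesis, averaged 98.3 ± 0.42 in VCaP and 46.5 ± 1.2 in RWPE1, and SREBF2, the master factor of cholesterol genes, averaged 51.7 ± 0.45 in VCaP and 82.7 ± 1.6 in RWPE1. The 2 VCaP probes of ACACA lay at 98.6 and 21.5 among all VCaP probes, and the probes used had different RefSeq accessions in the tables. With its probes averaged, ACACA differed by 42.3 points and kept its call. Of 28 endoplasmic reticulum and secretory genes, 3 were called higher in VCaP (10.7%) and 0 in RWPE1: AGR2, a secretory disulfide isomerase (79.3 ± 0.14 against 33.6 ± 3.3), CREB3L4 (74.2 ± 0.11 against 36.3 ± 3.3) and the Golgi protein GOLM1 (91.8 ± 0.31 against 56.1 ± 1.6).

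Metallothionein genes, which bind zinc and copper, varied with time in RWPE1. MT1M ranked 21.7 and 22.3 on the VCaP arrays, 52.6 and 53 on the 48 h RWPE1 arrays and 98.6 and 98.5 on the 72 h arrays, so that its SD in RWPE1 was 26.4 points. Its deposited log2 value averaged 7.63 ± 0.022 (SD, n = 2) at 48 h and 13.1 ± 0.068 (SD, n = 2) at 72 h. The difference was 5.47 ± 0.078 (SE), with an adjusted p of 3.23e-21 by limma with Benjamini-Hochberg adjustment. The spread behind this SE may be technical, since arrays of a group may share a culture. MT1G averaged 9.58 ± 0.17 (SD, n = 2) at 48 h and 13.8 ± 0.035 (SD, n = 2) at 72 h on the log2 scale, with an adjusted p of 2.26e-19 by limma. Both were called higher in RWPE1, while MT1E was called higher in VCaP (81.2 ± 0.15 against 49.4 ± 4.4). On the arrays labelled ERG short hairpin RNA and GFP-ERG, MT1E averaged 54.2 in VCaP and 51.8 in RWPE1 and was not called. Metallothioneins are near-identical in sequence, so the split among them is uncertain. Of 23 polyamine and zinc genes, 4 were called higher in RWPE1 (17.4%) and 1 in VCaP (4.35%), beside 6.16% and 5.53% of all genes. With the 48 h RWPE1 arrays alone 2 were called higher in RWPE1, against 4 with the 72 h arrays alone and 7 in the repeat on the arrays labelled ERG short hairpin RNA and GFP-ERG. Both 48 h ranks of MT1M lay under the level of 60, so its call rests on the 72 h arrays.

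Lists of genes that all cells use are set beside 5.53% of all genes called higher in VCaP and 6.16% in RWPE1. The 35 cytosolic ribosomal protein genes had 0 calls, with median ranks of 99.7 in VCaP and 99.4 in RWPE1. The 9 ranked housekeeping genes also had 0, and with so few genes this is near the shares of all genes. Of 25 proteasome genes, PSMC6 alone was called (4%), higher in RWPE1 (35.9 ± 11.1 against 93.7 ± 0.52). Of 31 respiratory chain genes, UQCRB alone was called (3.23%), also higher in RWPE1 (54 ± 0.99 against 84.3 ± 2.9). Both shares were near the 6.16% of all genes. PSMC6 and UQCRB each had 1 probe in each table.

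**Figure D4:**
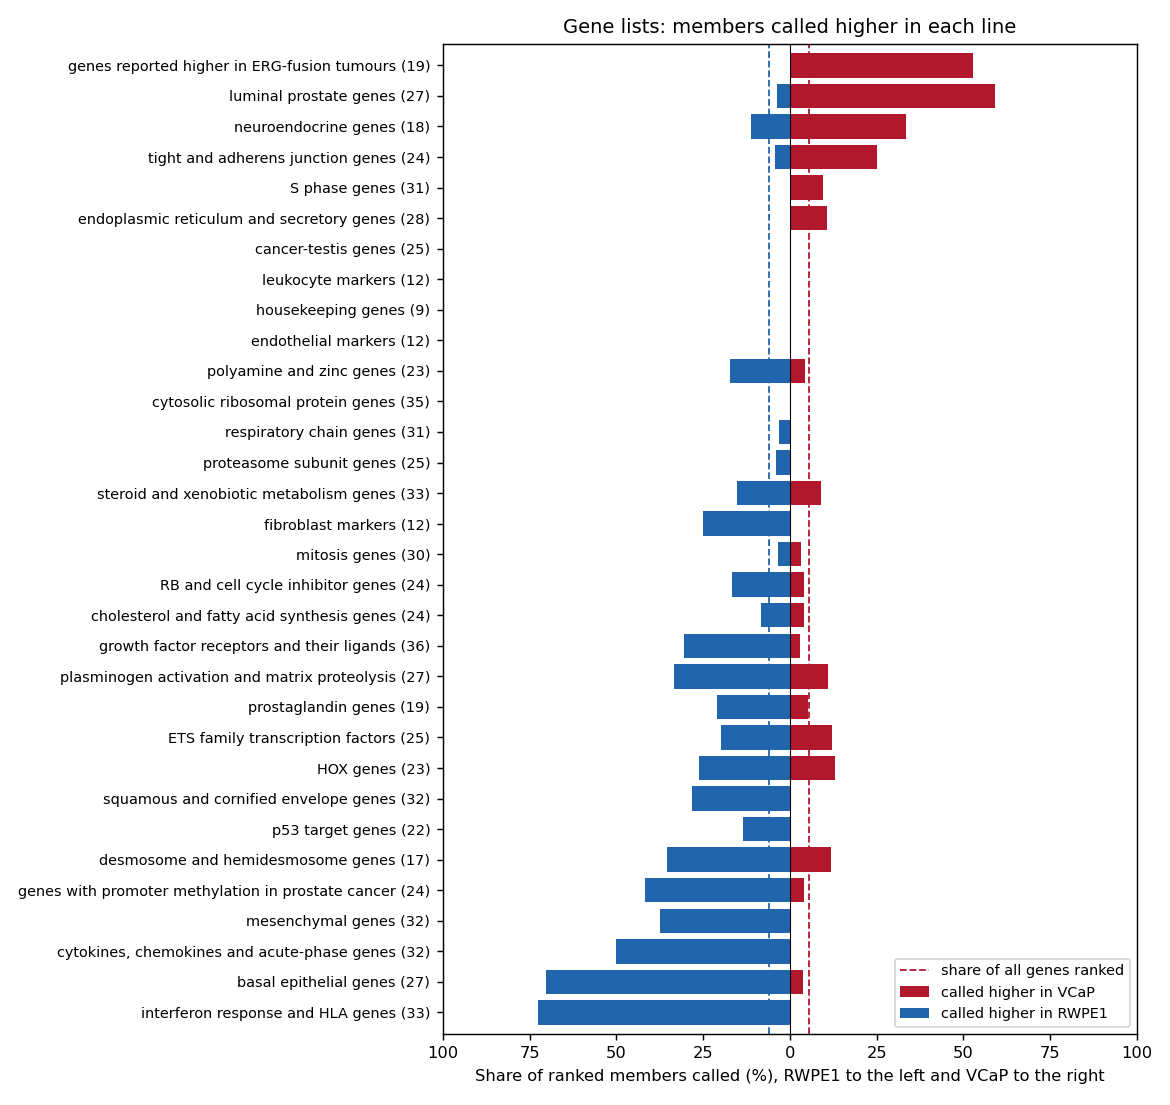
Share of the ranked members of each of the 32 gene lists called higher in RWPE1 (to the left) and in VCaP (to the right), in percent, against the shares over all genes, 6.16% and 5.53%. Interferon and basal genes extend farthest to the left, at 72.7% and 70.4%, and luminal and ERG-fusion tumour genes farthest to the right, at 59.3% and 52.6%. The lists were chosen with earlier results of these data known.

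Among the 15 genes with the largest differences toward VCaP, after AKR1D1, were LRRC26, a subunit of potassium channels that is known from secretory epithelium (98.3 ± 0.048 against 1.02 ± 0.67), and NPY, a neuropeptide (99.9 ± 0.065 against 3.15 ± 1.3). PRAC1, a small nuclear protein of prostate and colon, averaged 99.1 ± 0.15 in VCaP and 10.7 ± 4.9 in RWPE1, and CNTNAP2, a neuronal adhesion protein, averaged 95 ± 0.052 in VCaP and 4.63 ± 2.4 in RWPE1. Toward RWPE1, after IFI44L and CAV1, stood FGFBP1, which releases fibroblast growth factors from the matrix (5.92 ± 4.6 against 99.9 ± 0.035), and DKK1, a secreted Wnt inhibitor (3.304 ± 3.5 against 97.1 ± 2.0). KRT6C, a keratin with near-identical copies whose probes may not be separable, averaged 5.52 ± 6.0 in VCaP and 99.5 ± 0.15 in RWPE1.

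Some of these extremes are genes that most cells use or that belong to other lineages. ERP29, a chaperone of the endoplasmic reticulum, ranked 99.1 in VCaP and 8.02 ± 4.5 in RWPE1, where it had 1 probe. POMP, a proteasome assembly factor (4.83 ± 0.77 against 98.4 ± 0.36), and PPP2R2A, a phosphatase subunit (3.04 ± 2.5 against 94.5 ± 0.36), were dim in VCaP, on 1 probe in each table. The lymphocyte chemokine receptor CCR6 ranked 99.7 in VCaP on the brighter of 2 probes, the other lying at 12.3 among all VCaP gene probes. LILRB3, a leukocyte receptor, ranked 99.5 on the brighter of 2, the other lying at 27.5. The part of probe design in these differences was not tested. Calls differed with the probes. Of the 869 genes whose probes had different RefSeq accessions in the tables, 13.0% were called higher in VCaP and 6.21% in RWPE1. Of the 15382 with the same accession, the shares were 5.10% and 6.16%. Of the 3124 genes with more than 1 probe in a table, 9.76% were called higher in VCaP and 4.90% in RWPE1. Of the 13127 with 1 probe in each table, the shares were 4.52% and 6.46%.

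The comparison was repeated on the other arrays of each line. VCaP arrays labelled ERG short hairpin RNA against RWPE1 arrays labelled GFP-ERG gave 989 genes higher in VCaP and 1052 higher in RWPE1, and these held 88.1% of the VCaP calls and 88.8% of the RWPE1 calls of the control arrays. The arrays share the lines and array designs with the control comparison, but differ from it in the construct, so the repeat is not independent of line or design. Levels moved for some named genes: in VCaP, CHGA averaged 93.5 and SYT4 95.2 on the arrays labelled ERG short hairpin RNA. Of the called genes named here, HSD17B6, MT1E, SCG5 and ZEB2 were not called in the repeat, nor were HOXC13 and PLA2G2A, which are described among the other observations. KLK3 averaged 63.2 in VCaP there, TMPRSS2 97.9, CDH1 96.9 and AKR1D1 99.4, and in RWPE1 KRT5 averaged 99.1, IFI44L 98.8 and GSTP1 99.9.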

How the data were processed

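The arrays are 1-colour Illumina bead arrays of biotin-labelled cRNA from Trizol-extracted total RNA, per the labels' protocols. The deposited values were taken as log2 intensities from their range, and their near-equal distributions on all arrays of a table show that the authors had normalised them. Log base, software and normalisation method were not given in the sources used here, and ranks do not depend on the base. Probes were named from the platform annotation: 21833 of 24525 VCaP probes and 18332 of 20589 RWPE1 probes had 1 symbol and the rest none. The tables then held 16922 and 16591 genes, of which 16251 were shared. Per gene, the probe with the highest mean in its table was kept, and each array was ranked in percentiles with ties averaged (Python 3.11.15, pandas 2.3.3). The number of arrays limits the precision. The members and the 32 lists (847 genes, 758 ranked) were chosen with earlier results of these data known. Genes named are a fixed set of markers, the 15 largest differences each way, and per list up to 8 called members each way and up to 3 others, plus 5 list genes with the largest changes over time. RWPE1 times were tested with limma 3.58.1 (R 4.3.3) in 1 fit of 4 groups, with Benjamini-Hochberg adjustment over 16591 genes. On simulated data for that contrast, the fit recovered 92% of log2 changes of 0.5 and 100% of those of 1 among 16591 genes. Alternatives covered left-out arrays, single times, mean of probes, same accession, 1 probe per gene, other thresholds, normal scores and, over time, filters, variance models and a replicate block.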

Additional observations from a re-analysis of the deposited data

How the results depend on the processing

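The counts of calls depended most on the thresholds. A difference of 15 points gave 1552 genes higher in VCaP and 1533 in RWPE1, 40 points gave 458 and 568, a level of 75 gave 579 and 661, and no limit on level gave 1525 and 1598. Leaving out 1 array gave 900 to 917 and 997 to 1009. The 48 h arrays alone gave 916 and 1007, the 72 h arrays alone 894 and 1010, the mean of probes 833 and 967, same accession 803 and 930 of 15382 genes, a single probe on both designs 653 and 792 of 13127 genes, and normal scores 1035 and 1099. No called gene that is named changed sign under these settings. No paired analysis was possible because the comparison of the lines comes from no test and the arrays of the lines are not matched. For 72 h against 48 h, leaving out 1 array gave 1268 to 1464 genes higher and 1277 to 1458 lower, and the lowest count, 1268, came without the first 48 h array, with 1 array left at 48 h that is assumed to vary like the other groups. With the replicate block, 1916 genes were higher and 1809 lower. Across genes, same-numbered GFP arrays of 48 h and 72 h did not deviate together (r = -0.015). The other groups were not checked, and a low correlation cannot show that same-numbered arrays share nothing else. Dim probes limit the lower ranks.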

Other observations

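HOX genes set position along the body axis. Of 23 ranked members, 6 (26.1%) were called higher in RWPE1 and 3 (13.0%) in VCaP, beside 6.16% and 5.53% of all genes. HOXC6, which is often raised in prostate cancer, averaged 96.9 ± 0.26 in VCaP and 42.1 ± 1.4 in RWPE1. HOXC4 averaged 67.3 ± 0.68 in VCaP and 33.8 ± 4.8 in RWPE1, and with its probes averaged it differed by 28.8 points but no longer reached the level of 60. The posterior genes HOXD10 (10.4 ± 2.3 against 73.7 ± 2.4), HOXD11 (29.995 ± 13.6 against 85.1 ± 2.0) and HOXC13 (44.7 ± 3.7 against 83.1 ± 2.4) and the genes HOXB7 (27.9 ± 2.6 against 79.8 ± 1.3) and HOXB5 (32.8 ± 1.0 against 65.2 ± 1.8) were higher in RWPE1. Neighbouring genes of the HOXB cluster thus differed in direction from HOXB13, which was higher in VCaP.

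Of 19 prostaglandin genes, 4 were called higher in RWPE1 (21.1%) and 1 in VCaP (5.26%), beside 6.16% and 5.53% of all genes. PTGES, the synthase of prostaglandin E, averaged 63.1 ± 0.078 in VCaP and 93.7 ± 1.8 in RWPE1, and PTGER4, one of its receptors, averaged 43.6 ± 1.4 in VCaP and 84.8 ± 1.5 in RWPE1. The cyclooxygenases PTGS1 (37.6 ± 6.8 against 71.6 ± 7.9) and PTGS2 (32.4 ± 8.8 against 63.6 ± 4.1) were higher in RWPE1, and the secreted phospholipase PLA2G2A was higher in VCaP (78.6 ± 2.2 against 14.9 ± 1.8). Averaging its probes ended the call of PTGS1, at -23.1 points. None of 25 cancer-testis genes was called in either direction, and the list's median rank was 14.0 in VCaP and 16.9 in RWPE1. A call needs a mean rank of at least 60, so a list this dim could give few calls. With no limit on level, 3 members were higher in VCaP and 1 in RWPE1, beside 9.38% and 9.83% of all genes.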
